A study of Homo sapiens with 8 samples.

Results

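The expression of 10 genes of the cornified envelope was followed across MCF10A cells cultured in 4 hydrogels: the structural precursors IVL, SPRR1A, SPRR1B, SPRR2A, SPRR2D, SPRR2E and SPRR3, the crosslinking enzyme TGM1, the scaffold protein EVPL and the protease inhibitor A2ML1. These 10 genes were chosen by name from the 25341 named genes of the table, at a time when values from these libraries were already known, so their differences are a description and their counts are not independent evidence of a direction. MCF10A is a spontaneously immortalized, non-tumorigenic human mammary epithelial line. Every culture used this line without any further genetic change or drug, and RNA was taken on day 7 after encapsulation. Soft IPN and stiff IPN are interpenetrating networks of alginate and reconstituted basement membrane (rBM), which differ in how strongly the alginate is crosslinked and contain no added col-1, the type I collagen of stroma. Per the paper, added calcium crosslinks the alginate. The IPNs thus differ in added calcium as well as in stiffness, which cannot be told apart here. Soft col:rBM is a mixture of col-1 and rBM, and stiff col is labelled as a col-1 gel, with no rBM named. By their labels the collagen gels thus differ from each other in composition as well as in stiffness. Each gel had 2 libraries, described in the methods as independent trials and numbered replicate 1 and replicate 2. The labels do not say whether equal numbers in different gels mark the same trial, so trial stands here for the replicate number. The RNA-seq was described by its submitters as a search for genes responsive to matrix stiffness or to col-1.

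The cornified envelope is an insoluble protein shell that squamous epithelial cells build beneath their plasma membrane late in differentiation. Transglutaminases join envoplakin, periplakin and involucrin into a first scaffold, and small proline-rich proteins (SPRRs) are then crosslinked onto it as short bridges. Simple mammary epithelium does not normally form such a shell, but squamous genes can be induced in cultured mammary and other epithelial cells.

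The unit throughout is the normalized count, a read count per gene divided by 1 factor per library. Library sums lay between 14283845 and 17974161 normalized counts, which corresponded to about 13038654 to 18549928 counted reads. A gene with 3 reads, taken as the floor of detection, had 2.4 to 3.7 normalized counts depending on the library, and this floor covers counting error only. The epithelial identity of the line was visible in every library, with KRT5 between 7417 and 44022 and TP63 between 622 and 1865 normalized counts, and CDKN2A, which is deleted in MCF10A, was at 0 in all 8 libraries. The RNA came from whole gels, so fewer cells making a transcript and less transcript per cell cannot be told apart.

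Differences were estimated with limma on log2(normalized count + 1) over the 13349 genes that reached 10 normalized counts in at least 2 libraries, and all 10 envelope genes were among them. SPRR2E passed this limit through the 2 stiff IPN libraries alone, and SPRR2A, SPRR3 and A2ML1 needed them too. A gene is called here when its Benjamini-Hochberg adjusted p over all tested genes was under 0.05. Because libraries with the same replicate number deviated together, each comparison was fitted without and with the trial as a block, and both fits share the same log2 difference. The standard errors (SE) and 95% intervals given are those of the fit without a block. Permuting 2 libraries against 2 reaches a smallest two-sided exact p of 0.333, so no gene was tested in that way.

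**Figure D1:**
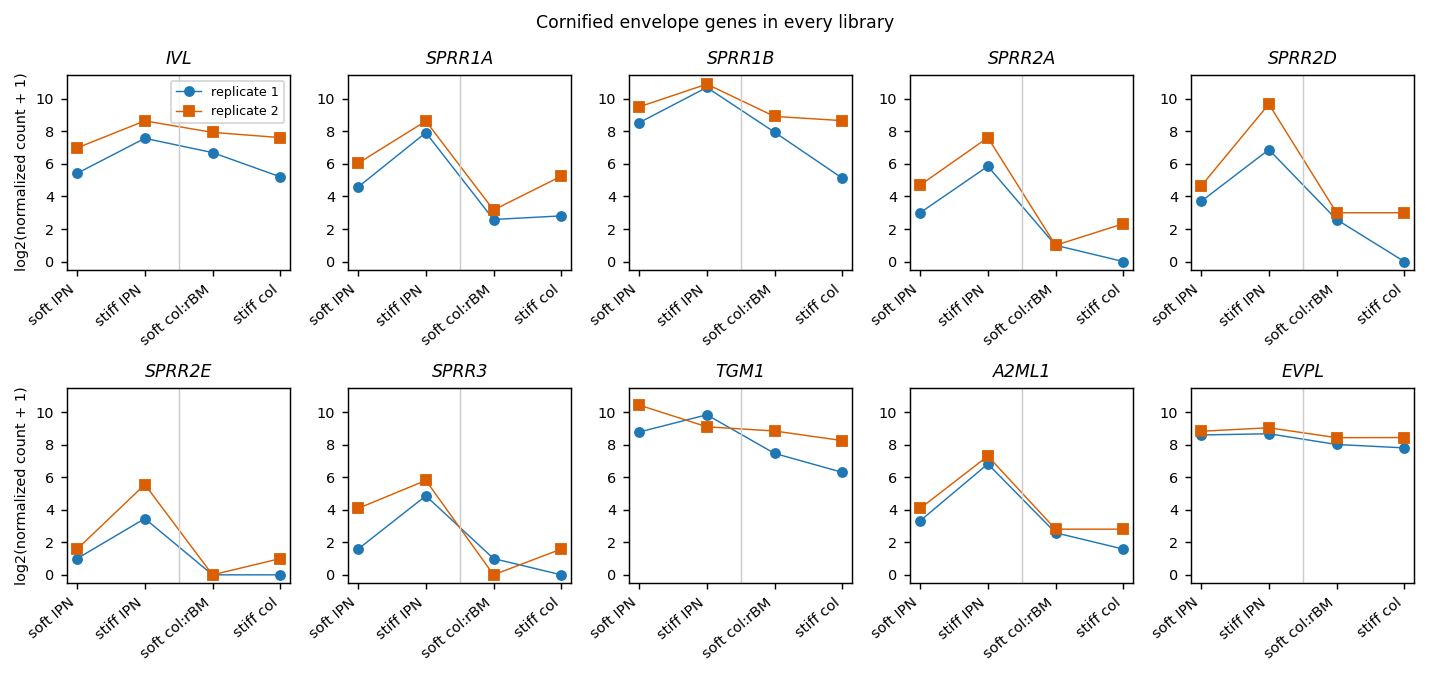
Level of each envelope gene in every library, as log2(normalized count + 1) on the vertical axis, with the 4 gels on the horizontal axis. Circles are replicate 1 and squares replicate 2, and the lines join libraries with the same replicate number. A set of 8 genes lies higher in stiff IPN than in soft IPN in both trials without overlap, while TGM1 crosses and EVPL is nearly level.

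IVL, which encodes involucrin, the early scaffold substrate of transglutaminases, had 42 and 126 normalized counts in soft IPN (replicates 1 and 2), 190 and 401 in stiff IPN, 103 and 245 in soft col:rBM, and 36 and 196 in stiff col. Its stiff IPN libraries lay above both soft IPN libraries, but the lower of them overlapped with both collagen gels. IVL was the one envelope gene with a higher mean in soft col:rBM (174 ± 100, SD, n = 2) than in soft IPN (84.0 ± 59.4). Between stiff IPN and soft IPN the log2 difference was 1.91 ± 0.89 (SE), with an adjusted p of 0.545 in limma without a block and 0.0318 with the replicate block.

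SPRR1A, a small proline-rich precursor, had 23 and 65 normalized counts in soft IPN, 242 and 397 in stiff IPN, 5 and 8 in soft col:rBM, and 6 and 37 in stiff col. The stiff IPN libraries exceeded each of the other 6, and soft col:rBM lay below both soft IPN libraries. The mean in stiff IPN was 7.26-fold that in soft IPN and 14.9-fold that in stiff col. The log2 difference between the IPNs was 2.97 ± 0.84 (SE), with an adjusted p of 0.492 in limma without a block and 0.0282 with it.

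SPRR1B, the neighbouring and closely related precursor, was the most abundant of the family. It had 371 and 729 normalized counts in soft IPN, 1671 and 1923 in stiff IPN, 247 and 485 in soft col:rBM, and 34 and 405 in stiff col. Both stiff IPN libraries stood above all others, whereas the stiff col libraries differed from each other more than any other pair. The log2 difference between stiff IPN and soft IPN was 1.78 ± 1.0 (SE), not called in limma without a block (adjusted p = 0.587) or with it (adjusted p = 0.143). Between stiff col and stiff IPN it was -3.91 ± 1.0, with an adjusted p of 0.459 without a block and 0.0261 with it.

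SPRR2A, SPRR2D and SPRR2E encode nearly the same short proline-rich protein. Their coding sequences, taken from GENCODE 44 transcripts on hg19 and shown without the stop codon, have the same length of 216 bases and are printed because this likeness limits how far reads can be told apart. Capitals mark the 6 positions at which the 3 sequences are not all the same.
SPRR2A: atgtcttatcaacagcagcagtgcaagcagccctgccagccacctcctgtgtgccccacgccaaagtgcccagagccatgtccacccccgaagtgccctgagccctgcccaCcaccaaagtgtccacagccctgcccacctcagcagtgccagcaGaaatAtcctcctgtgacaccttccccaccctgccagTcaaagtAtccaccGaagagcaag
SPRR2D: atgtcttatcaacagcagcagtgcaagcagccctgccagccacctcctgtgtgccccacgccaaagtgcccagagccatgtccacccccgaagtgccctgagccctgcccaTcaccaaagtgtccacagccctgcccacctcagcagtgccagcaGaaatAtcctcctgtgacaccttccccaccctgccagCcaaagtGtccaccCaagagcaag
SPRR2E: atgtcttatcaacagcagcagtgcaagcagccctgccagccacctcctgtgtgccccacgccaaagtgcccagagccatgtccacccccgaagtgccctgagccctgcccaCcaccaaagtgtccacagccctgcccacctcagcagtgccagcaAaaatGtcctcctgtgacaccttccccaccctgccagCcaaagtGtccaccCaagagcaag

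The coding sequences were identical at 98.1% of bases between SPRR2A and SPRR2D, at 97.7% between SPRR2A and SPRR2E, and at 98.6% between SPRR2D and SPRR2E. Of all 50-base stretches of their annotated exons, 34.4% for SPRR2A, 23.3% for SPRR2E and 19.4% for SPRR2D also occurred in another gene, mostly another SPRR2 gene. The share was 8.2% for SPRR1B and 7.2% for SPRR1A, which share stretches with each other, 2.0% for EVPL, 0.3% for A2ML1, and 0.0% for IVL, SPRR3 and TGM1. Reads that mapped to more than 1 place had been removed, so the values of the SPRR1 and SPRR2 genes are uncertain in level, and those of single SPRR2 genes also in how reads were divided.

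SPRR2D had 12 and 24 normalized counts in soft IPN, 117 and 821 in stiff IPN, 5 and 7 in soft col:rBM, and 0 and 7 in stiff col. The stiff IPN libraries were far apart from each other but both exceeded every other library. The log2 difference of 4.11 ± 1.17 (SE) between the IPNs had rank 5 of the 13349 genes among positive differences, and that of -6.78 ± 1.17 between stiff col and stiff IPN had rank 2 among negative ones. With the replicate block in limma the adjusted p was 0.0293 for the first and 0.00637 for the second, against 0.491 and 0.232 without it. With stiff col at 0 and 7, the size of the second depends on the added count, being -7.33 with 0.5 and -5.36 with 5 in place of 1, and the same holds for SPRR2A (-6.15 and -4.06) and SPRR3 (-5.15 and -2.91).

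SPRR2A had 7 and 25 normalized counts in soft IPN, 57 and 196 in stiff IPN, 1 and 1 in soft col:rBM, and 0 and 4 in stiff col. It was therefore at or under the 3-read floor in 3 of the 4 collagen-gel libraries. The log2 difference was 2.89 ± 1.0 (SE) between the IPNs, with an adjusted p of 0.499 in limma without a block and 0.0474 with it.

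SPRR2E had 1 and 2 normalized counts in soft IPN, 10 and 46 in stiff IPN, 0 and 0 in soft col:rBM, and 0 and 1 in stiff col. Outside stiff IPN it did not rise above the floor in any library. The ratio of reads between stiff IPN and soft IPN was 16.1, with a 95% exact interval from 5.21 to 80.4 that covers counting error only. The fitted log2 difference of 3.21 ± 0.90 (SE) depends on the added count of 1 and was not called in limma with the replicate block (adjusted p = 0.0538) or without it (adjusted p = 0.491).

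SPRR3, a longer member of the family best known from the lining of the mouth and oesophagus, had 2 and 16 normalized counts in soft IPN, 28 and 55 in stiff IPN, 1 and 0 in soft col:rBM, and 0 and 2 in stiff col. All 4 collagen-gel libraries were at or under the floor, while soft IPN spanned it. The ratio of reads between stiff IPN and stiff col was 45.2 (95% exact interval 12.1 to 379, counting error only). The log2 difference between the IPNs was 2.50 ± 1.01 (SE), with an adjusted p of 0.518 in limma without a block and 0.121 with it.

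TGM1, the membrane-anchored transglutaminase that crosslinks the precursors, followed another pattern. It had 439 and 1388 normalized counts in soft IPN, 917 and 549 in stiff IPN, 176 and 459 in soft col:rBM, and 78 and 305 in stiff col. Its highest library was a soft IPN one, and the trials went in opposite directions between the IPNs, with log2 differences of 1.06 in replicate 1 and -1.34 in replicate 2. The fitted difference was -0.14, with a 95% interval from -2.01 to 1.73, and was not called in limma (adjusted p = 0.97 without a block and 0.905 with it).

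EVPL, which encodes envoplakin, a plakin that ties the envelope to desmosomes and keratin, was the steadiest gene of the group. It had 387 and 454 normalized counts in soft IPN, 408 and 527 in stiff IPN, 258 and 345 in soft col:rBM, and 223 and 347 in stiff col. The IPNs overlapped, and so did the collagen gels, while all 4 IPN libraries lay above all 4 collagen-gel libraries. The log2 difference was 0.15 between the IPNs, with a 95% interval from -0.54 to 0.83 (limma adjusted p = 0.896 without a block and 0.631 with it).

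A2ML1, a broad protease inhibitor of the alpha-2-macroglobulin family found in the upper epidermis, had 9 and 16 normalized counts in soft IPN, 112 and 157 in stiff IPN, 5 and 6 in soft col:rBM, and 2 and 6 in stiff col. Both stiff IPN libraries exceeded every other library, and the other gels overlapped only between the collagen gels. Its mean in stiff IPN was 10.8-fold that in soft IPN and 33.6-fold that in stiff col. The log2 difference between the IPNs was 3.36 ± 0.57 (SE), with an adjusted p of 0.41 in limma without a block and 0.0169 with it. Between stiff col and stiff IPN it was -4.87 ± 0.57, which had rank 3 of all tested genes by p, with an adjusted p of 0.131 without a block and 0.0053 with it.

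Levels between genes were compared per kilobase of annotated exon. SPRR1B was the highest of the 10 in every gel, with means of 889 ± 409 (SD, n = 2) normalized counts per kb in soft IPN, 2903 ± 288 in stiff IPN, 591 ± 272 in soft col:rBM and 355 ± 424 in stiff col. In soft IPN, TGM1 followed at 245 ± 180 and SPRR1A at 66.5 ± 44.9. In stiff IPN the order after SPRR1B was SPRR1A (483 ± 166), SPRR2D (446 ± 473), TGM1 (196 ± 69.7), SPRR2A (187 ± 145) and IVL (137 ± 69.3). The libraries of SPRR2D overlapped with those of each of these 4 other genes, so its place in that order did not stand out from the spread. Those of TGM1, SPRR2A and IVL also overlapped with one another, so the order of these genes is not fixed either. In soft IPN the libraries of SPRR1A overlapped with those of EVPL and IVL. A2ML1 had the lowest mean per kb in both IPNs and in stiff col (18.8 ± 4.45 in stiff IPN), but its libraries overlapped there with those of SPRR2E, so this place did not stand out from the spread either.

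Stiff IPN and soft IPN differ in stiffness and in added calcium, and neither holds added col-1. Between them, 9 of the 10 genes had a higher mean log2 level in stiff IPN and TGM1 a lower one. For 8 of them the gels did not overlap, all 8 being higher in stiff IPN (all except TGM1 and EVPL), against 20.5% of all tested genes. The median log2 difference of the 10 was 2.69, and that of all tested genes was -0.01, with quartiles of -0.29 and 0.30. Limma without a block called none of the 10 and 0% of all genes, and 6 of the 10 were under 0.05 unadjusted, against 9.33% of all genes. With the replicate block it called 5, all higher in stiff IPN (IVL, SPRR1A, SPRR2A, SPRR2D and A2ML1), against 3.83% of all genes. SPRR2E, SPRR3 and SPRR1B, which also did not overlap, were not called. SPRR2A, SPRR2E, SPRR3 and A2ML1 were tested only because they were high in stiff IPN. The direction of these genes was thus partly fixed by the filter. Leaving out 1 library at a time turned the direction of TGM1 (-0.97 to 0.69) and EVPL (-0.04 to 0.33). The other 8 stayed higher in stiff IPN, but their sizes moved. The lowest values, without soft IPN replicate 1, were 1.13 for IVL, 2.24 for SPRR1A, 1.30 for SPRR1B, 1.25 for SPRR3 and 2.97 for A2ML1. The lowest values without stiff IPN replicate 2 were 2.01 for SPRR2A, 2.71 for SPRR2D and 2.17 for SPRR2E.

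Stiff col and stiff IPN differ in col-1, alginate and added calcium, and possibly in rBM. In this comparison all 10 genes had a lower mean log2 level in stiff col. A total of 9 were lower without overlap, against 15.8% of all tested genes, and the exception was IVL, whose replicate 2 in stiff col (196) slightly exceeded its replicate 1 in stiff IPN (190). The median log2 difference of the 10 was -4.13, against 0.00 over all genes. Limma without a block called none of them and 0% of all genes, with 9 of the 10 under 0.05 unadjusted against 6.28% of all genes. With the replicate block 8 were called, all lower in stiff col, against 2.47% of all genes. They include SPRR2A, SPRR2E, SPRR3 and A2ML1, which were tested only because they were high in stiff IPN. The direction of these genes was thus partly fixed by the filter. TGM1 (-2.19, limma adjusted p = 0.0855 with the block) and EVPL (-0.74, adjusted p = 0.0681) were not called. Leaving out stiff col replicate 1 narrowed the difference to -0.49 for IVL and to -2.14 for SPRR1B, and leaving out stiff col replicate 2 widened it to -2.90 and -5.68. For the other 8 genes the value without stiff col replicate 1 lay between -5.28 (SPRR2D) and -0.42 (EVPL). This comparison shares the stiff IPN libraries with the previous one, so the differences for a gene are not independent of each other.

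**Figure D2:**
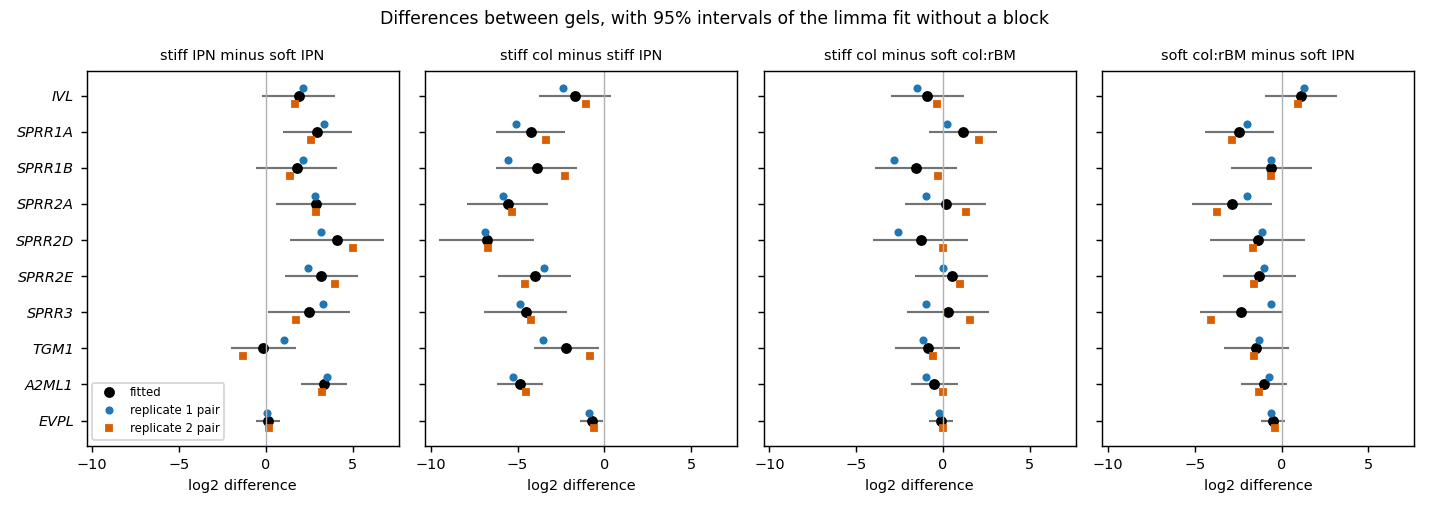
Log2 differences of the 10 envelope genes in 4 comparisons, with the fitted value (black), its 95% interval from limma without a block (grey line), and the differences within the replicate 1 pair (blue circles) and the replicate 2 pair (orange squares). In the comparison of the IPNs the precursors and A2ML1 lie right of 0 in both trials, in stiff col against stiff IPN all 10 genes lie left of 0 in both, and in stiff col against soft col:rBM the intervals of all 10 include 0.

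Between stiff col and soft col:rBM none of the 10 genes was separated. Without overlap, 9.51% of all tested genes were higher and 9.5% lower in stiff col, and none of the 10 was in either group. The median of the 10 was -0.30, against 0.00 over all genes. Neither fit in limma called a gene (0% of all genes without a block and 0% with it), and the counts under 0.05 unadjusted were 0 and 3 of the 10, against 1.05% and 3.72% of all genes. The 95% intervals were wide, from -3.0 to 1.19 for IVL and from -3.89 to 0.80 for SPRR1B, and so also held falls as wide as the differences between the IPNs. EVPL had the narrowest interval, from -0.78 to 0.58. Without stiff col replicate 1 the differences of IVL, SPRR1B, SPRR2D, TGM1, A2ML1 and EVPL changed sign, to values between 0.10 and 0.30. For SPRR2E and SPRR3 both collagen gels held 3 reads or fewer in sum, so no fold is given.

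Soft col:rBM and soft IPN are the soft gels, of which the first contains col-1 and no alginate and the second alginate and no col-1. In all, 9 genes had a lower mean log2 level in soft col:rBM and IVL a higher one, by 1.11 ± 0.89 (SE). Of the 10, 7 were lower without overlap, namely SPRR1A, SPRR2A, SPRR2D, SPRR2E, SPRR3, A2ML1 and EVPL, against 10.4% of all genes. For SPRR2E this rests on 1 and 2 normalized counts against 0 and 0, all at or under the 3-read floor, and for SPRR3 the floor holds for all but 1 of the 4 libraries, so these 2 separations carry no weight. The widest differences were -2.85 ± 1.0 for SPRR2A and -2.44 ± 0.84 for SPRR1A. SPRR2A was under the floor in soft col:rBM, so its size depends on the added count. It was -3.2 with 0.5 and -1.66 with 5 in place of 1, against -2.52 and -1.96 for SPRR1A, so their order is not fixed. The fits in limma called none of the 10 and no gene at all (0% without a block and 0% with it), with 2 and 7 of the 10 under 0.05 unadjusted, against 1.42% and 4.76% of all genes. The median of the 10 was -1.34, against 0.00 over all genes.

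Whether the stiffness difference itself differed between the gel systems was tested as the difference in the collagen gels minus that in the IPNs. It was negative for all 10 genes, with a median of -2.72 against 0.01 over all genes, and it shares every library with the comparisons above. Because SPRR2A, SPRR2E, SPRR3 and A2ML1 were tested only through their high values in stiff IPN, the filter partly fixed their direction here too. The counts and the median of the 10 include these genes. SPRR2D had the widest value (-5.40 ± 1.65, SE), followed by A2ML1 (-3.86 ± 0.81) and SPRR1B (-3.33 ± 1.42), whereas EVPL (-0.25 ± 0.41) and TGM1 (-0.74 ± 1.13) were near 0. None of the 10 was called in limma without a block, where 0% of genes were called, or with the replicate block, where 0.015% were. Unadjusted, 3 and 7 of the 10 were under 0.05, against 2.08% and 9.89% of all genes. The lowest adjusted p among the 10, with the block, was 0.143 for A2ML1.

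The SPRR family was also read as 1 pool. The 6 SPRR genes together made up 23.2 and 47.9 of every 1000000 normalized counts in soft IPN, 137 and 241 in stiff IPN, 14.5 and 32.2 in soft col:rBM, and 2.31 and 30.6 in stiff col. Stiff IPN exceeded every other library, and in all 4 gels replicate 2 was the higher. The make-up of the pool also differed between libraries. SPRR1B supplied 89.1% and 84.7% of SPRR reads in soft IPN but 78.7% (95% Wilson interval 77 to 80.3) and 55.9% (54.2 to 57.7) in stiff IPN. It supplied 95.2% and 96.8% in soft col:rBM, and 85.4% and 88.9% in stiff col, where the first rests on 41 reads. The SPRR2 genes supplied 4.84% and 5.90% in soft IPN and 8.65% and 30.9% in stiff IPN, so the 2 stiff IPN trials had unlike SPRR2 shares. These shares are of reads and not per length, their intervals cover counting error only, and they were not tested across gels.

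**Figure D3:**
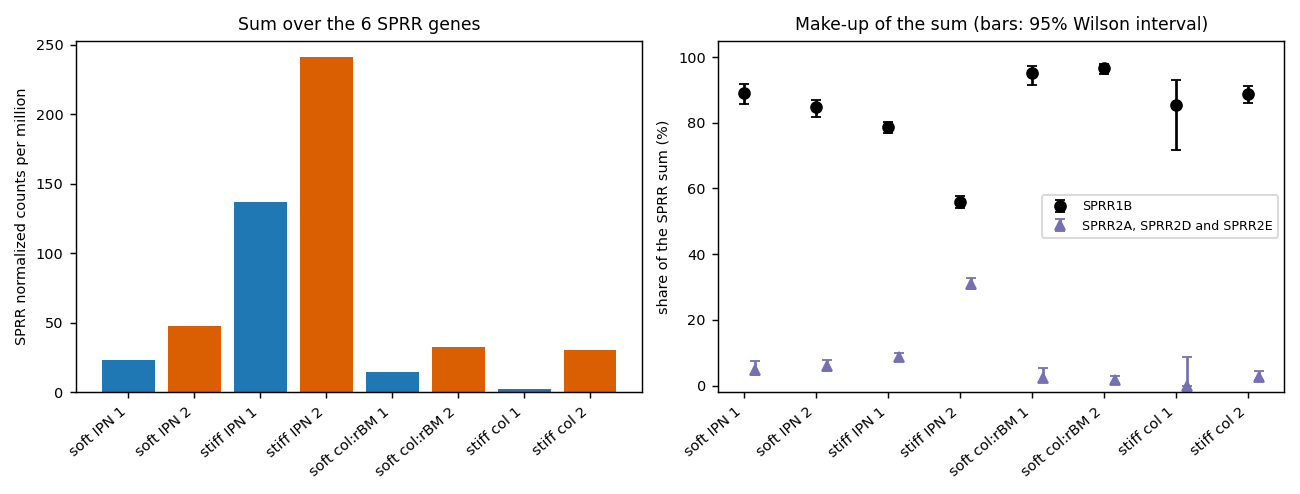
Left, the sum of the 6 SPRR genes in each library per 1000000 normalized counts (blue, replicate 1, and orange, replicate 2). Right, the percentage of that sum from SPRR1B (circles) and from SPRR2A, SPRR2D and SPRR2E together (triangles), with 95% Wilson intervals. The sum is highest at 137 and 241 in stiff IPN, and the SPRR2 share reaches 30.9% in stiff IPN replicate 2.

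The trial moved with the level of these genes. Replicate 2 exceeded replicate 1 for 10 of the 10 genes in soft IPN, 9 in stiff IPN (all but TGM1), 7 in soft col:rBM and 10 in stiff col. The median log2 difference between replicate 2 and replicate 1 was 1.22, 0.83, 0.42 and 2.14 in these gels, while over all tested genes it lay between -0.01 and 0.00. The library stiff col replicate 1 held the lowest value, or shared the lowest, of 9 of the 10 genes. KRT14, a basal keratin, differed between trials too, with 2003 and 7964 normalized counts in soft IPN, 3555 and 7848 in stiff IPN, 1488 and 7616 in soft col:rBM, and 839 and 4034 in stiff col. Other basal epithelial markers did not all move this way. KRT5, KRT17, ITGA6 and DST were also higher in replicate 2 in every gel, and KRT15 in every gel but stiff IPN. ITGB4, COL17A1 and LAMB3 were instead lower in replicate 2 in every gel. The part of the trials' other differences in the envelope genes was not tested.

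Of the 10 genes, 7 lie in the epidermal differentiation complex on chromosome 1, within chr1:152881022-153078660 (hg19). Along this stretch of 197.6 kb their order is IVL, SPRR1A, SPRR3, SPRR1B, SPRR2D, SPRR2A and SPRR2E. IVL, SPRR1A, SPRR3 and SPRR1B are on the plus strand and the SPRR2 genes on the minus strand. The other genes are A2ML1 at chr12:8975217-9039597 on the plus strand, TGM1 at chr14:24718320-24733638 on the minus strand, and EVPL at chr17:74000583-74023387 on the minus strand (hg19). TGM1 and EVPL, the 2 genes whose libraries overlapped between the IPNs, thus lie outside the complex, as does A2ML1, whose libraries did not overlap.

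RefSeq promoter sequence on GRCh38.p14 matched 6 of the 10 genes (IVL, SPRR1A, SPRR3, SPRR1B, SPRR2A and A2ML1). The 250 bases before the transcript start are shown for all 6, because the libraries of each of these genes did not overlap between the IPNs, and capitals mark the AP-1 motif TGANTCA and the TATA motif TATAAA. AP-1 is the family of FOS and JUN transcription factors. In order, the windows are chr1:152908296-152908545, chr1:152983831-152984080, chr1:153001499-153001748 and chr1:153030953-153031202 on the plus strand and chr1:153057513-153057762 on the minus strand, followed by 2 windows for A2ML1, chr12:8822371-8822620 and chr12:8844754-8845003 on the plus strand, each written 5′ to 3′ on its gene's strand.
IVL: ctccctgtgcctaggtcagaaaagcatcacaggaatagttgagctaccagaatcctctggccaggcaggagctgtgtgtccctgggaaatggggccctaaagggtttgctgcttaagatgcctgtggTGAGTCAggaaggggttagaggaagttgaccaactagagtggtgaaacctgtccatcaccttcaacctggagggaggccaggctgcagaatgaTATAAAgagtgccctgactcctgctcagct
SPRR1A: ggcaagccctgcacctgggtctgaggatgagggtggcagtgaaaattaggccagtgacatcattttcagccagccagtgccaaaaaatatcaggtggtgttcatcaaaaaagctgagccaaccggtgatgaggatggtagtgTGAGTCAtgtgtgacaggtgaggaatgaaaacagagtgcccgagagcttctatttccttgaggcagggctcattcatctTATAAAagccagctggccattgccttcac
SPRR3: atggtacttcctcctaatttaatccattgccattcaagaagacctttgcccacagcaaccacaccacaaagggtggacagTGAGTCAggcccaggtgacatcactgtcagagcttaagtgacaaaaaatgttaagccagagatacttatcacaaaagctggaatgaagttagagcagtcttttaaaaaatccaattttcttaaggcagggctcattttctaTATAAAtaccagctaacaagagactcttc
SPRR1B: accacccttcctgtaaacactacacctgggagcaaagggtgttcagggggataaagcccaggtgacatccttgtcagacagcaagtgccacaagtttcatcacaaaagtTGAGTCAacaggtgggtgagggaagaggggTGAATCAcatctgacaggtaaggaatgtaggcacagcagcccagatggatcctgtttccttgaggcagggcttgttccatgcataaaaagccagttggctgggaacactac
SPRR2A: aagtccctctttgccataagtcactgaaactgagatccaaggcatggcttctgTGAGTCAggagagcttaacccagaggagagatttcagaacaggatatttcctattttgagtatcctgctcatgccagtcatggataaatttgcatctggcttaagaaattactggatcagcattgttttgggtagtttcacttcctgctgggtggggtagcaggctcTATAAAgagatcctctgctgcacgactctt
A2ML1, window 1: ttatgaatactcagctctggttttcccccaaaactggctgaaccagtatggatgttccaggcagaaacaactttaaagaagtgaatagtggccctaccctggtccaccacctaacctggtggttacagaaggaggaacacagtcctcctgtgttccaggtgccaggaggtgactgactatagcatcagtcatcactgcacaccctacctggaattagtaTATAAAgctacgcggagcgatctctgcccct
A2ML1, window 2: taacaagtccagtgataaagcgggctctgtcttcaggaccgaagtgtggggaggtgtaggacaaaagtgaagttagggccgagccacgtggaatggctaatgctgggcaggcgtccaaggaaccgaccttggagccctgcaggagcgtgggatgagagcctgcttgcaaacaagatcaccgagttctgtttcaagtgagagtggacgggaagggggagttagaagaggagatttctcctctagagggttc

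The AP-1 letters occurred in the 5 genes on chromosome 1 and in neither A2ML1 window, on either strand, against 6.6% of the 35116 RefSeq promoters of the same length. Their distance before the start was 123 bases in IVL, 108 in SPRR1A, 170 in SPRR3, 141 and 111 in SPRR1B, and 197 in SPRR2A. TATAAA occurred in 5 of the 6 genes (all but SPRR1B), 29 to 31 bases before the start, against 10.7% of all promoters. Of the other motifs searched on both strands, GGAAGT (ETS factors) was found in 3 of the 6 genes against 19.5% of all promoters, GGGTGGG (KLF factors) in 1 against 18.2%, and AACCNGTT (GRHL factors) in none against 1.5%. These matches describe letters in a window, and the data hold no measure of binding.

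The envelope genes were set beside 42 other genes of squamous differentiation, of which 17 were at 0 in all libraries and 11 were tested. The late precursor LOR was at 0 in every library and FLG did not exceed 8 normalized counts, and the suprabasal keratin KRT1 did not exceed 5. Among the 11, limma with the replicate block called 3 between the IPNs, all higher in stiff IPN (ANXA1, PI3 and TGM5), against 3.83% of all tested genes, and without it none. The median log2 difference of the 11 was 0.53, against -0.01 over all genes. Between stiff col and stiff IPN it called 4 with the block, all lower in stiff col (PPL, ANXA1, PI3 and TGM5), against 2.47% of all genes, and the median was -1.01, against 0.00 over all genes.

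PI3 encodes elafin, a protease inhibitor that transglutaminases also crosslink. It had 165 and 387 normalized counts in soft IPN, 2616 and 3577 in stiff IPN, 36 and 182 in soft col:rBM, and 46 and 244 in stiff col, so both stiff IPN libraries stood apart. The log2 difference between the IPNs was 3.59 ± 0.95 (SE, limma adjusted p = 0.491 without a block and 0.0131 with it). TGM5, another epidermal transglutaminase, had 21 and 18 in soft IPN against 96 and 102 in stiff IPN, a log2 difference of 2.29 ± 0.43, where TGM1 showed none that was called. CASP14, the caspase of terminal keratinocyte differentiation, was lower in both stiff IPN libraries, with 1625 and 2005 normalized counts in soft IPN and 322 and 13 in stiff IPN (log2 difference -4.75 ± 1.32, limma adjusted p = 0.491 without a block and 0.0611 with it).

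Of 13 genes for barrier lipids, 7 were tested and limma with the replicate block called 1 between the IPNs, against 3.83% of all genes. It was ALOX15B, a lipoxygenase, which was lower in stiff IPN by a log2 difference of -1.06 ± 0.51 (SE), with an adjusted p of 0.55 without a block and 0.0391 with it. The median of the 7 was -0.39, against -0.01 over all genes. ALOX15B had 6594 and 5225 normalized counts in soft IPN and 4223 and 1888 in stiff IPN. The epidermal lipoxygenase ALOXE3 had 216 and 327 against 198 and 116, and ABCA12, a lipid transporter, 1887 and 4088 against 2151 and 1744, and neither was called. KRT10 was the single suprabasal keratin tested, with 563 and 1027 in soft IPN and 688 and 1551 in stiff IPN, and was not called.

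Of 14 transcription regulators of squamous differentiation 13 were tested. Between the IPNs limma with the replicate block called 2 of them, against 3.83% of all genes, and without it none. GRHL1 was higher in stiff IPN by 1.47 ± 0.46 (SE) on the log2 scale, with a limma adjusted p of 0.492 without a block and 0.045 with it. PRDM1 was lower, with -1.75 ± 0.49 and adjusted p values of 0.491 and 0.0409. The median of the 13 was 0.41, against -0.01 over all genes. GRHL1 had 33 and 53 normalized counts in soft IPN and 108 and 129 in stiff IPN. ELF3, an epithelial ETS factor, had 240 and 64 against 544 and 712, OVOL1 7 and 18 against 36 and 95, and ZNF750 2 and 16 against 32 and 49. These 3 did not overlap between the IPNs and were not called. Over all tested genes, 20.5% were higher in stiff IPN without overlap. In soft IPN replicate 1, ZNF750 was under the floor of detection. Between stiff col and stiff IPN 3 of these regulators were called lower in stiff col with the block, namely GRHL1, GRHL3 and ELF3, against 2.47% of all genes. The median there was -0.91, against 0.00 over all genes.

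**Figure D4:**
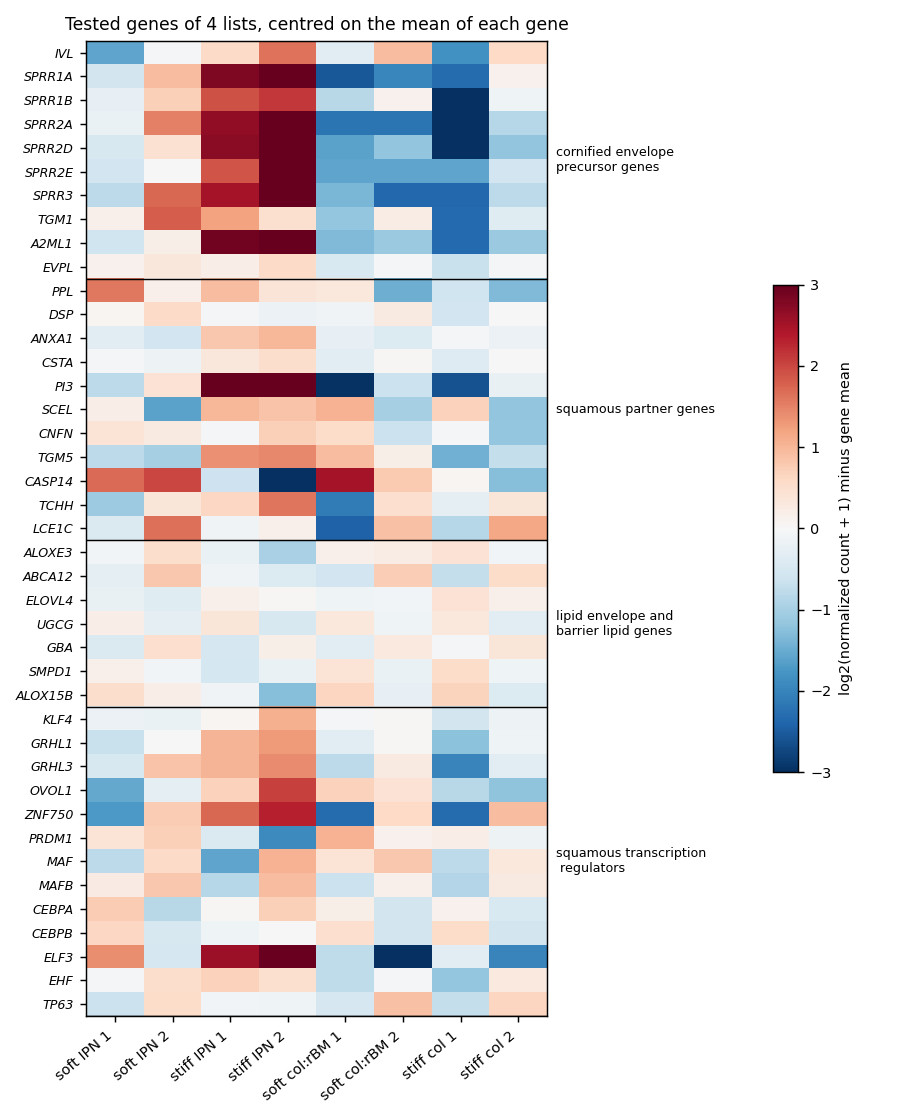
Tested genes of the envelope group and of 3 other lists (rows) in the 8 libraries (columns), each coloured by log2(normalized count + 1) minus the mean of the gene over the libraries, with red above and blue below the mean. PI3 stands with the precursors in stiff IPN, while CASP14 is lowest in stiff IPN replicate 2 at 13 normalized counts.

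Markers of other cells were read beside these differences. Basal epithelial markers were all tested (9 of 9), with sums of 155895 to 201952 normalized counts in soft IPN, 133670 to 192809 in stiff IPN, 156109 to 174030 in soft col:rBM and 121404 to 126435 in stiff col. Within that list KRT17 was higher in stiff IPN than in soft IPN by 1.88 ± 0.96 (SE) on the log2 scale, with a limma adjusted p of 0.568 without a block and 0.00671 with it, and ITGB4 and COL17A1 were called lower with the block alone. When stiff col was set against stiff IPN, KRT17 (-2.57), KRT14 (-1.52) and DST (-1.09) were called lower in stiff col with the block alone. That is the direction of the envelope genes, but the list was mixed. Of the 9, 6 were lower in stiff col and 3 higher, namely ITGB4 (0.67), COL17A1 (0.37) and LAMB3 (0.33), which were not called. Luminal markers (7 of 11 tested) summed to 13570 to 15274 in soft IPN, 10623 to 15667 in stiff IPN, 8589 to 14154 in soft col:rBM and 8231 to 11283 in stiff col, and FOXA1 was called higher in stiff IPN with the block, while EPCAM and KRT8 were not called between the IPNs. Of that list EPCAM (-1.71) and MUC1 (-2.40) were also called lower in the stiff col gel relative to stiff IPN, again with the block alone. With the block, limma called 3.83% of all tested genes between the IPNs and 2.47% between stiff col and stiff IPN. The part of these markers in the envelope differences was not tested.

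The immune list summed to 2105 to 4231 normalized counts in soft IPN and 334 to 1234 in stiff IPN, nearly all of it CD68, which epithelial cells also make, while its defining marker PTPRC was at 0 in all 8 libraries and LYZ lay between 7 and 14. Endothelial markers (3 of 5 tested: PECAM1, TEK and KDR) summed to 254 to 419 in soft IPN and 42 to 115 in stiff IPN, while CDH5 was at 0 in 7 of 8 libraries. With the block alone, limma called CD68 (-2.24) and TEK (-3.71) lower in stiff IPN than in soft IPN, against 3.83% of all genes called. Both were also called higher in stiff col than in stiff IPN (1.72 and 3.66), again with the block alone, against 2.47% of all genes called. Fibroblast markers (2 of 7 tested: DCN and COL1A1) summed to 998 to 1371 in soft IPN and 1067 to 1101 in stiff IPN, with COL1A2 at 0 in all libraries.

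Genes outside the group were ranked by how closely their profile over the 8 libraries followed the median profile of the envelope genes, as the root mean square difference between centred log2 values. Of 13339 genes the nearest were BSPRY (0.44), CLDN1 (0.45), GPR110 (0.49), ANKRD22 (0.50), STEAP4 (0.50), CAPN8 (0.52), RHOV (0.53), EDN1 (0.53), EPPK1 (0.58) and GJA5 (0.60). CLDN1, a tight junction claudin, was the most abundant of them in stiff IPN, with 112 and 166 normalized counts in soft IPN, 672 and 2761 in stiff IPN, 43 and 55 in soft col:rBM, and 48 and 96 in stiff col. Among the 10 envelope genes themselves A2ML1 lay closest to the median profile (0.37) and EVPL farthest from it (1.48). The ranking is a description over 8 libraries. BSPRY, ANKRD22, STEAP4, CAPN8 and GJA5 were tested, and so ranked, only because they were high in stiff IPN. The profiles of these genes were thus partly fixed by the filter. BSPRY, CAPN8 and GJA5 were also under the floor of detection in every collagen-gel library. Their log2 values in those gels therefore depend on the added count.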

How the data were processed

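RNA of MCF10A cells from 4 gels (2 libraries each, 8 in all, grouped by the labelled gel and replicate) was sequenced by the authors from unstranded TruSeq libraries as paired 50-base reads. Per the paper's methods and the submitters' processing notes, reads were trimmed (Trim Galore 0.3.3), aligned to hg19 (the methods name Bowtie2, the notes TopHat2 2.0.13), filtered for unmapped, low quality and multimapped reads (SAMtools 1.1) and counted with HTSeq. What was deposited is a signal, namely counts that the authors divided by 1 factor per library (DESeq2, R 3.2.0) and rounded. Overlapping genes cannot be told apart by strand. The factors were estimated from gaps between whole numbers, so the read numbers are estimates.

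Of 25369 rows, 28 named as dates were left out. Genes with at least 10 normalized counts in 2 libraries (13349) were fitted as log2(value + 1) with limma 3.58.1 (statmod 1.5.0, R 4.3.3), 1 mean per gel, trend and robust moderation, Benjamini-Hochberg adjustment and two-sided tests. A single check asked if equal replicate numbers mark paired libraries. The methods describe independent trials, and the differences between replicates correlated in all 6 pairs of gels (r from 0.28 to 0.82 across genes), so the fit with a replicate block is given beside that without. Positions came from GENCODE 44 on hg19 and promoters from RefSeq on GRCh38.p14. Python 3.11.15, numpy 2.4.6, pandas 2.3.3, scipy 1.17.1 and matplotlib 3.10.9 were used.

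The envelope genes and the other lists (squamous partners, barrier lipids, transcription regulators, suprabasal keratins, and basal, luminal, fibroblast, immune and endothelial markers) were chosen with earlier results of these data known. Named from each list were the 3 tested genes with the largest difference between the IPNs, all genes of lists with at most 5 tested, and the 10 genes nearest in profile. Others named beside them (KRT14 and the further basal markers, LOR, FLG, KRT1 and the genes called with the block) were chosen after their values were seen. A further gene of the transcription regulator list is not reported here. Pseudocounts, filters, scalings, samples in the fit, the block and leaving out each library were varied. The fit was tested on simulated data with a spread that was set and changes in abundant genes only. With a shift between replicates, the fit without a block recovered 0% of log2 changes of 1 and 39.4% of those of 2. The fit with the block recovered 89.9% and 100%, with 8.6 false calls per run against 0 without it.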

Additional observations from a re-analysis of the deposited data

Results flagged for a closer look

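IVL and SPRR1B were singled out because both trials moved in opposite directions in the 2 gel systems. IVL was higher in stiff than in soft IPN by 2.15 and 1.66 on the log2 scale in replicates 1 and 2, while the stiff col minus soft col:rBM differences were -1.49 and -0.32. SPRR1B showed 2.17 and 1.40 in the IPNs and -2.82 and -0.26 in the collagen gels. The difference between the systems was -2.81 ± 1.26 (SE) for IVL and -3.33 ± 1.42 for SPRR1B. It was not called for either gene in limma, with adjusted p values of 1 for both without a block and 0.145 and 0.331 with the replicate block. Both falls in the collagen gels are widest in replicate 1, the trial of the stiff col library that held the lowest values of most envelope genes. Leaving out that library turned the stiff col minus soft col:rBM difference to 0.30 for IVL and 0.23 for SPRR1B, and the difference between systems was then -1.61 and -1.56. The groups of 2 libraries were too small to look for single outlying libraries.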

How the results depend on the processing

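The replicate block changed most calls. It raised the genes called from 0 to 511 between the IPNs, to 330 between stiff col and stiff IPN and to 2 for the difference between gel systems, and the envelope genes called from 0 to 5 and 8 in the first 2 comparisons. It changed no other call of an envelope gene. Fitting only the gels compared called 2 genes between the IPNs. With a pseudocount of 5, stiff col against stiff IPN had 4 genes called, 1 of them the envelope gene A2ML1. Leaving out 1 library at a time gave 0 to 5 genes and 0 to 1 envelope genes there, the upper values coming without stiff col replicate 2, where SPRR1B was called (-5.68). Leaving out 1 library also turned directions that had not been called. Between the IPNs the range was -0.97 to 0.69 for TGM1 and -0.04 to 0.33 for EVPL. Between stiff col and soft col:rBM it was -2.11 to 0.30 for IVL, -0.07 to 2.37 for SPRR1A, -3.31 to 0.23 for SPRR1B, -1.0 to 1.32 for SPRR2A, -2.79 to 0.21 for SPRR2D, 0.00 to 1.0 for SPRR2E, -0.50 to 1.08 for SPRR3, -1.85 to 0.10 for TGM1, -1.11 to 0.11 for A2ML1 and -0.42 to 0.22 for EVPL. With a pseudocount of 0.5 the SPRR2A difference there was 0.00. For the difference between systems the range was -1.71 to 0.24 for TGM1 and -0.56 to 0.07 for EVPL. The cause was not tested. Other scalings moved the median of all genes by at most 0.024. All other differences of the envelope genes kept their direction under these alternatives. Values at or under 3 reads, those of SPRR2A, SPRR2E and SPRR3 in collagen gels above all, limit what those gels can show.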
